A study of Homo sapiens with 4 samples.

Results

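Transcripts of the protein-folding machinery of the endoplasmic reticulum (ER) and of the unfolded protein response were followed in breast cancer cells in which TMEM126A, a mitochondrial inner membrane protein gene, had been lowered or raised. The genes were chosen by symbol from a list of 35, and all 35 were found among the 39261 genes of the deposited tables, ERO1B through its gene ID under the older symbol ERO1LB. By role, 13 encode chaperones and co-chaperones, 9 disulfide isomerases and oxidases (AGR2 among them), 8 parts of ER-associated degradation, 4 the stress sensors and a transcription factor, and 1, SEC61B, a subunit of the translocation channel. RNA came from 4 cultures, each sequenced as 1 library: MDA-MB-231 cells with TMEM126A knockdown, MDA-MB-231 cells with a control vector (sh-NC), Ca1a cells with TMEM126A overexpression, and Ca1a cells with a control vector (pCDH). MDA-MB-231 is a triple-negative line of mesenchymal character, and MCF10-Ca1a (Ca1a) is a malignant line derived from MCF10A mammary epithelium. All constructs came by lentivirus, and the labels do not say whether a culture was a clone or a pool. The lines also grew in different media: Ca1a received insulin, EGF, cholera toxin, hydrocortisone and horse serum, and MDA-MB-231 received fetal bovine serum.

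Secretory and membrane proteins fold in the ER with the help of the Hsp70 chaperone BiP (HSPA5), its J-domain partners and exchange factors, the lectin chaperones calreticulin and calnexin, and isomerases that form and rearrange disulfide bonds. When unfolded proteins build up, the membrane sensors IRE1 (ERN1), PERK (EIF2AK3) and ATF6 are activated: ATF6 is cleaved to a transcription factor, IRE1 splices XBP1 mRNA into its active form, and PERK slows translation and raises ATF4. ATF6 and spliced XBP1 induce chaperone and degradation genes through the ER stress response element (ERSE) and related elements of their promoters. Sensor activation is largely a matter of protein cleavage, phosphorylation and splicing, none of which is read by a count per gene.

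The promoters show which of the genes carry an exact copy of these elements, and inexact copies were not searched. The ones below are of chaperone and degradation genes that hold such a copy, with AGR2 beside them for contrast. DNAJB11 and MANF, which were also higher with knockdown, held no exact match and are not shown. Each sequence is the 250 bases before the annotated start in RefSeq's promoter table (GRCh38.p14), 5′ to 3′ on the gene's strand. Capitals mark the fixed letters of an exact ERSE (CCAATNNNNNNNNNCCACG) or ERSE-II (ATTGGNCCACG), searched on both strands, so an element on the opposite strand appears as its reverse complement. The windows are chr9:125241344-125241593 on the minus strand for HSPA5, chr22:21642052-21642301 on the plus strand for SDF2L1, chr22:49918384-49918633 on the plus strand for CRELD2, chr19:12938359-12938608 on the plus strand for CALR, chr16:56931892-56932141 on the plus strand for HERPUD1 and chr7:16805000-16805249 on the minus strand for AGR2.
HSPA5: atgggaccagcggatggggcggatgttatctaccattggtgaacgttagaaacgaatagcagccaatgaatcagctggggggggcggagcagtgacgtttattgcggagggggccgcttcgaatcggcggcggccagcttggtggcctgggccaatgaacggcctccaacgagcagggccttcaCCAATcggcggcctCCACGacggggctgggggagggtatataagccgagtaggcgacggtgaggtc
SDF2L1: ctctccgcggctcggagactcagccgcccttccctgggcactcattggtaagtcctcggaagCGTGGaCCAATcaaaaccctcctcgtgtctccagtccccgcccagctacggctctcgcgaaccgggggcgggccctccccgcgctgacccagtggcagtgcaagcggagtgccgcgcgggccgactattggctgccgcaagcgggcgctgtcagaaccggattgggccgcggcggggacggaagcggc
CRELD2: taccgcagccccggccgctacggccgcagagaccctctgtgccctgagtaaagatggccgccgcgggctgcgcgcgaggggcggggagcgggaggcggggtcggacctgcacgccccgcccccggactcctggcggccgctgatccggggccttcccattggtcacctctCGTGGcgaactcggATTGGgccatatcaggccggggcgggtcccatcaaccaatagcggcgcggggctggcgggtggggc
CALR: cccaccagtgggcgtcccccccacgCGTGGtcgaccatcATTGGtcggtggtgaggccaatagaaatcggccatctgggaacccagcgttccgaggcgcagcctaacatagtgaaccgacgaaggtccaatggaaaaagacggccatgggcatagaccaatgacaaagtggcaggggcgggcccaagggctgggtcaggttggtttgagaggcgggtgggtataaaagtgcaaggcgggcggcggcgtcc
HERPUD1: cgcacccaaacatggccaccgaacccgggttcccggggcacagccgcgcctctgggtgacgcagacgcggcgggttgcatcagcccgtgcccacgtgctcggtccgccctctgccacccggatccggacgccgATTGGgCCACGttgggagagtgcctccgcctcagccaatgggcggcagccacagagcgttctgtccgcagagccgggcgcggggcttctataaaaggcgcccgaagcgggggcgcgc
AGR2: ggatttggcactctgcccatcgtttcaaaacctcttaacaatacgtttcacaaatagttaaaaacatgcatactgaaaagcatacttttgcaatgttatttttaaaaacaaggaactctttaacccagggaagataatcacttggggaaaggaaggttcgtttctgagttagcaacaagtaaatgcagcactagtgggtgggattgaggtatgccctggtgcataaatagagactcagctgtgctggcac

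Promoter sequences matched 32 of the 35 genes by symbol. Of these, 8 held an exact ERSE, whereas 25 of all 27305 genes with a promoter did (0.0916%): HSPA5, HSP90B1, CALR, CANX, CRELD2, PDIA6, ERO1B and XBP1. The shorter ERSE-II was found in HYOU1, HERPUD1 and SDF2L1, and in 0.0696% of all genes. The XBP1 element UPRE (TGACGTGG, both strands, in 0.927% of genes) was found in DNAJC10 and HYOU1, and in HYOU1 it shares bases with an ERSE-II match. AGR2 held no exact match, and the bases shown for it were 40.4% G and C, whereas the other promoters shown were 61.6% to 74.0%. Further matches, read in the ERSE direction with the fixed letters in capitals, are given for HSP90B1, CANX, PDIA6 and XBP1. The second HSP90B1 match lies on the opposite strand and the others on the gene's strand.
HSP90B1, first: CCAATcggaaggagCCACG
HSP90B1, second: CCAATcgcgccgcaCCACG
CANX: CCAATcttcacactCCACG
PDIA6: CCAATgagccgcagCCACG
XBP1: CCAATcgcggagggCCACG

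The gene tables held 20673373 to 21405193 reads per library. TMEM126A followed the labels: it was at 22.9 normalized counts in knockdown cells, against 559 in control cells in MDA-MB-231, and at 9381 normalized counts in overexpressing cells, against 265 in control cells in Ca1a, where construct and endogenous reads cannot be separated. The lines matched their markers. The mesenchymal genes VIM and ZEB1 were at 708 to 721 and 8.07 to 8.31 FPKM in MDA-MB-231. In Ca1a they were at 74.8 to 90.5 and 0.116 to 0.132 FPKM. The epithelial genes EPCAM, CDH1 and KRT17 were at 131 to 133, 73.4 to 73.6 and 628 to 650.4 FPKM in Ca1a. In MDA-MB-231 these were at 2.62 to 3.10, 0.203 to 0.332 and 0.933 to 0.946 FPKM. With overexpression in Ca1a the basal gene KRT5 was 1.29-fold higher (1.26 to 1.31) and TP63 1.18-fold lower (1.08 to 1.29). Markers of other cells were at or near 0 for PTPRC and ADIPOQ, 28.9 to 98.6 FPKM for the lysosomal gene CD68, and 0.4004 to 1.79 FPKM for PECAM1 and COL1A1. Of these PECAM1 was higher in both treated libraries, at 1.88 (1.45 to 2.45) with knockdown and 1.66 (1.39 to 1.98) with overexpression, and its part in the results was not tested. Each condition is 1 culture, so nothing below could be tested between conditions, and intervals are 95% counting intervals that leave out any difference between cultures. In bulk RNA, fewer cells with a transcript and less of it per cell cannot be told apart.

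Levels were first compared between the control libraries. FPKM, which adjusts fragment counts for gene length and library size, spanned 2.45 (CRELD2) to 622 (CALR) in the MDA-MB-231 control and 0.251 (ERO1B) to 168 (HSP90B1) in the Ca1a control. CALR, which encodes the soluble lectin chaperone calreticulin, ranked 48 among all genes in the MDA-MB-231 control and 485 in the Ca1a control. In the same order of lines, HSPA5 ranked 66 and 263, the ER Hsp90 gene HSP90B1 83 and 255, the protein disulfide isomerase gene P4HB 111 and 326, and CANX, for membrane-bound calnexin, 159 and 316. These are among the most abundant transcripts of both lines. HYOU1, a large Hsp70-like chaperone gene, and DERL3, a derlin gene, are listed at 0 in all 4 libraries. In GENCODE release 29, 77.0% of the exonic bases of DERL3 overlap exons of SMARCB1 on the other strand and 8.66% of those of HYOU1 overlap an antisense gene, and the part of such overlaps in the zeros was not tested.

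**Figure D1:**
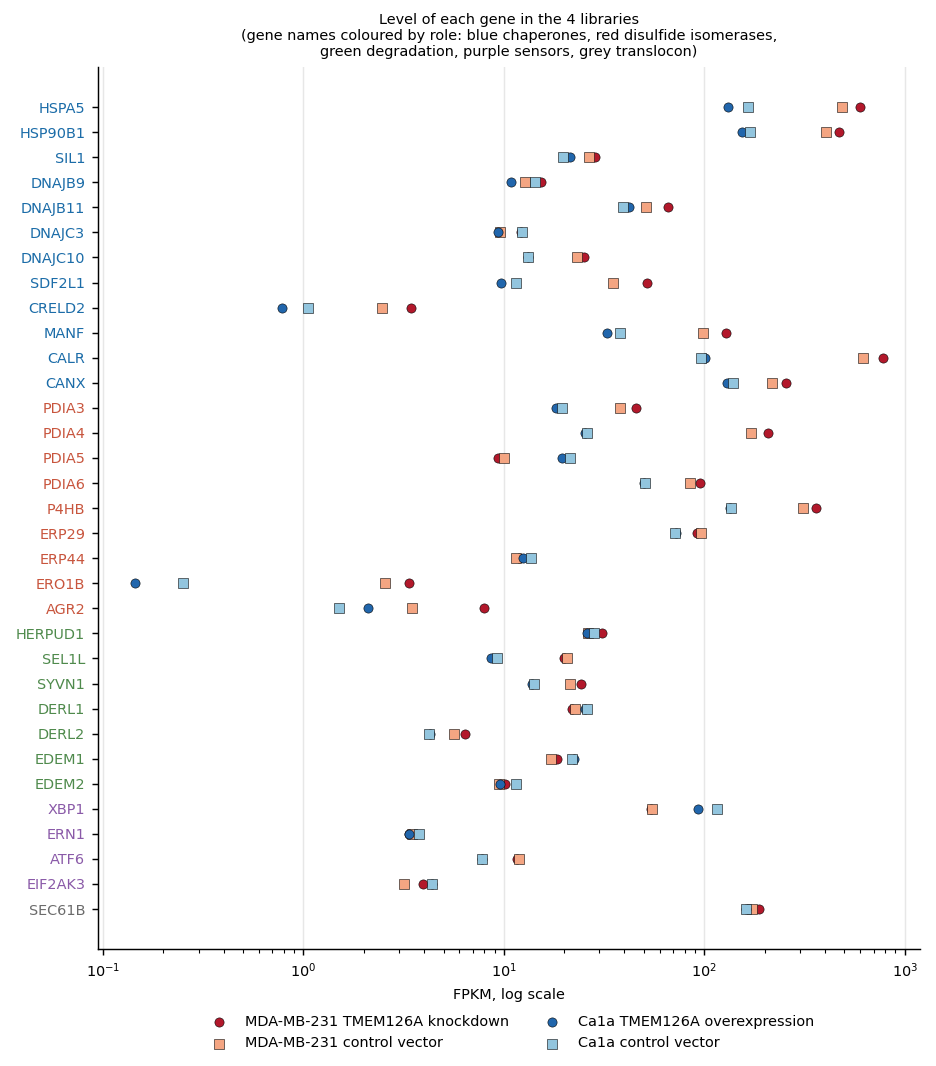
FPKM (log axis) of the 33 genes above 0 in the 4 libraries, with circles for the treated and squares for the control libraries. CALR, HSPA5 and HSP90B1 reach 403 to 780.3 FPKM in both MDA-MB-231 libraries and stay at 96.1 to 168 FPKM in both Ca1a libraries, while XBP1 is higher in Ca1a.

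In FPKM, 6 of 12 chaperone genes and 4 of 9 isomerase and oxidase genes were at least 2-fold higher in the MDA-MB-231 control than in the Ca1a control. With a 2-fold threshold and a mean of at least 1 FPKM, 11 of 33 genes were higher in MDA-MB-231 and 2 were lower, against 25.1% and 13.3% of all 11363 genes tested. The all-gene median was itself shifted, at a log2 ratio of 0.27, and the median over the 33 genes was 0.61. With read counts scaled by TMM (edgeR's trimmed mean of M values) the all-gene median was -0.02, with 22.5% of genes higher and 19.4% lower, and 7 of the 33 were higher and 2 lower with a median of 0.27. The calls lost on read counts were HSP90B1, P4HB, AGR2 and SEL1L. On read counts the share higher was thus about that of all genes.

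CALR had 622 FPKM in MDA-MB-231 and 96.1 FPKM in Ca1a, 6.47-fold higher, and 4.97-fold (4.84 to 5.10) in read counts. PDIA4, an isomerase gene with several thioredoxin-like domains, had 170.3 FPKM in MDA-MB-231 and 25.9 FPKM in Ca1a, 6.57-fold higher and 5.14-fold (4.92 to 5.37) in read counts. HSPA5 had 487 FPKM in MDA-MB-231 and 166 FPKM in Ca1a, a ratio of 2.93. These abundant folding genes thus differed severalfold between the lines. SDF2L1, whose product keeps misfolded clients soluble, had 35.1 FPKM in MDA-MB-231 and 11.5 FPKM in Ca1a, a ratio of 3.05. ERO1B, an oxidase gene that recharges the isomerases, had 2.56 FPKM in MDA-MB-231 and 0.251 FPKM in Ca1a, a ratio of 10.2 that rests on 30 reads in the Ca1a control. AGR2 had 3.48 FPKM in MDA-MB-231 and 1.51 FPKM in Ca1a, a ratio of 2.31, which was 1.85 (1.45 to 2.37) in read counts and there under 2-fold. The genes lower in MDA-MB-231 were XBP1 and the isomerase gene PDIA5. XBP1 had 55.1 FPKM in MDA-MB-231 and 116 FPKM in Ca1a, 2.11-fold lower and 2.66-fold lower in read counts, and PDIA5 had 9.97 FPKM in MDA-MB-231 and 21.3 FPKM in Ca1a, 2.14-fold lower. Sensor and degradation genes stood closer across the lines. ATF6 had 11.9 FPKM in MDA-MB-231 and 7.78 FPKM in Ca1a, ERN1 had 3.49 FPKM in MDA-MB-231 and 3.78 FPKM in Ca1a, and EIF2AK3 had 3.17 FPKM in MDA-MB-231 and 4.38 FPKM in Ca1a. SEL1L, the adaptor of the HRD1 ubiquitin ligase, was 2.24-fold higher in MDA-MB-231 in FPKM and 1.84-fold (1.75 to 1.94) in read counts, and the other 6 measured degradation genes lay within 2-fold in FPKM. Line, medium and vector cannot be told apart in this comparison.

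**Figure D2:**
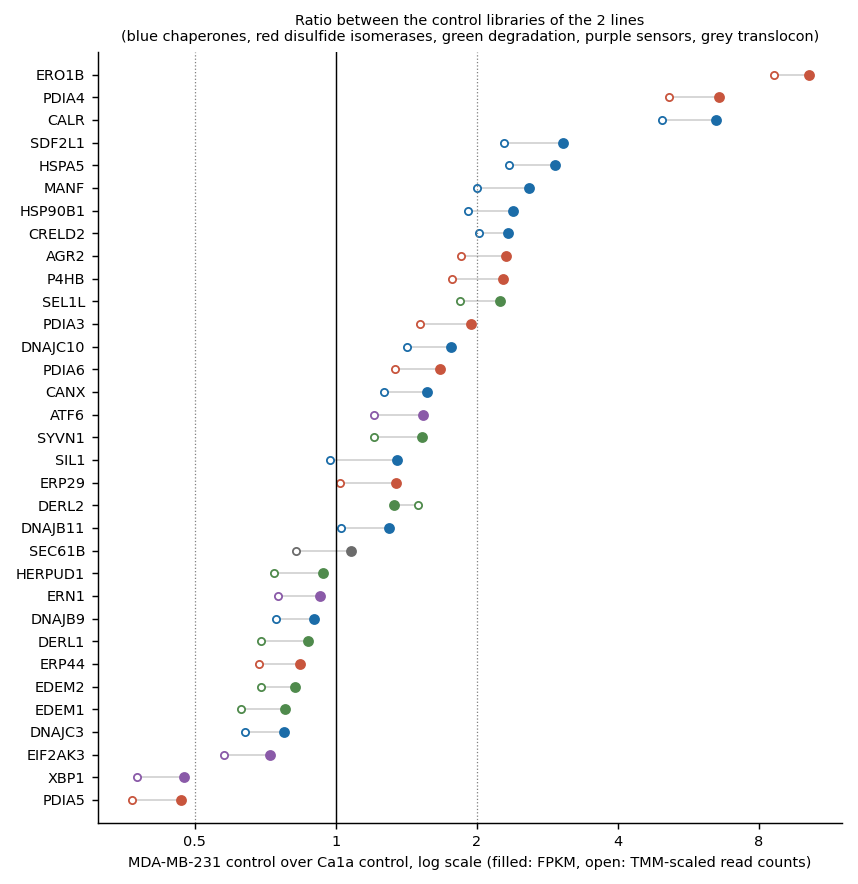
Ratio of the MDA-MB-231 control over the Ca1a control (log axis) for 33 genes, with FPKM as filled and TMM-scaled read counts as open circles; dotted lines mark 2-fold. ERO1B, PDIA4 and CALR lie highest and XBP1 and PDIA5 lowest on both scales, and the open circles sit to the left of the filled ones for every gene except DERL2.

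The knockdown comparison asks which transcripts differ in MDA-MB-231 when TMEM126A is lowered. By the call defined next, 7 of 12 chaperone genes, 3 of 9 isomerase and oxidase genes, 0 of 7 degradation genes and 1 of 4 sensor genes were higher in the knockdown library, and 0 were lower. A gene is called when its normalized count, the reads divided by the library's size factor, is at least 1.2-fold higher or lower with a counting interval that leaves out 1 and a mean of at least 20. Of 33 measured genes 11 were called higher, against 5.33% of all 13292 genes tested, and 0 were called lower, against 3.39%. With total reads as the scale those shares were 4.15% and 4.54% of all genes, and 10 of the 33 were called higher. The interval lay above 1 for 24 of the 33 and below 1 for 0, against 16.8% and 11.3% of all genes. The median log2 ratio was 0.24, against 0.01 over all genes. Abundant genes have narrower intervals, and among those with a mean of at least 1000 there were 6 of 24 called higher and 0 lower, against 2.66% and 1.43% of all such genes. Together the 35 genes took 1.51% of all reads in knockdown cells and 1.29% in control cells. They were chosen with earlier results of these data known, so the all-gene shares set beside their counts are a description.

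All 12 measured chaperone and co-chaperone genes had an interval above 1, with ratios of 1.09 to 1.52, and 7 of them were called. HSPA5 had 73136 normalized counts in knockdown cells, against 58711.5 in control cells, 1.25-fold higher (1.23 to 1.26). CALR had 50296 with knockdown, against 39269 with control, 1.28-fold higher (1.26 to 1.30). Both are abundant, and their counting errors are correspondingly small. SDF2L1 had 635 normalized counts in knockdown cells, against 418 in control cells, 1.52-fold higher (1.34 to 1.73). CRELD2, a stress-induced folding factor gene, had 631 with knockdown, against 439.7 with control, 1.44-fold higher (1.27 to 1.62). MANF, which encodes a BiP-binding protein that is also secreted, had 3335 with knockdown, against 2517.5 with control, 1.32-fold higher (1.26 to 1.40). SDF2L1, CRELD2 and MANF, less abundant than HSPA5 and CALR, had the largest ratios among the chaperones.

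J-domain partners of BiP differed in the size of the ratio. DNAJB11 (ERdj3), which hands unfolded clients to BiP, had 3025 normalized counts in knockdown cells, against 2326 in control cells, 1.30-fold higher (1.23 to 1.37). DNAJC3 (p58IPK) had 2083 with knockdown, against 1633 with control, 1.28-fold higher (1.19 to 1.36). DNAJB9 (ERdj4), which restrains IRE1, had 923 with knockdown, against 771 with control, and its ratio of 1.198 (1.09 to 1.32) lay just under the threshold. DNAJC10 (ERdj5), a disulfide reductase with a J domain, was nearest its control level at 1.09 (1.05 to 1.13), followed by the BiP exchange factor gene SIL1 at 1.11 (1.03 to 1.19). The abundant HSP90B1 (47927 with knockdown, against 40382 with control) had a ratio of 1.19 (1.17 to 1.203), also under the threshold. CANX (42286 with knockdown, against 35843 with control) was similar at 1.18 (1.16 to 1.197).

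Of the 9 disulfide isomerase and oxidase genes 3 were called higher: PDIA4, ERO1B and AGR2. PDIA4 had 18720 normalized counts in knockdown cells, against 15035 in control cells, 1.25-fold higher (1.22 to 1.27). ERO1B had 420.4 with knockdown, against 321 with control, 1.31-fold higher (1.13 to 1.52). P4HB (24291.5 with knockdown, against 20520.4 with control) had a ratio of 1.18 (1.16 to 1.21), PDIA3, the glycoprotein isomerase that works with calreticulin and calnexin, of 1.19 (1.15 to 1.23), and PDIA6 of 1.14 (1.101 to 1.17). These had intervals above 1 and stayed under 1.2-fold. The intervals of PDIA5 at 0.952 (0.837 to 1.08), ERP29, a family member without the catalytic cysteines, at 0.968 (0.925 to 1.01) and ERP44, which retains oxidases in the early secretory pathway, at 1.04 (0.972 to 1.11) included 1. In GENCODE, other genes on the opposite strand share 25.2% of the exonic bases of PDIA6 (ATP6V1C2), 17.5% of those of ERP29 and 14.8% of those of PDIA3 (ELL3) (the strand setting of the counting was not stated).

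**Figure D3:**
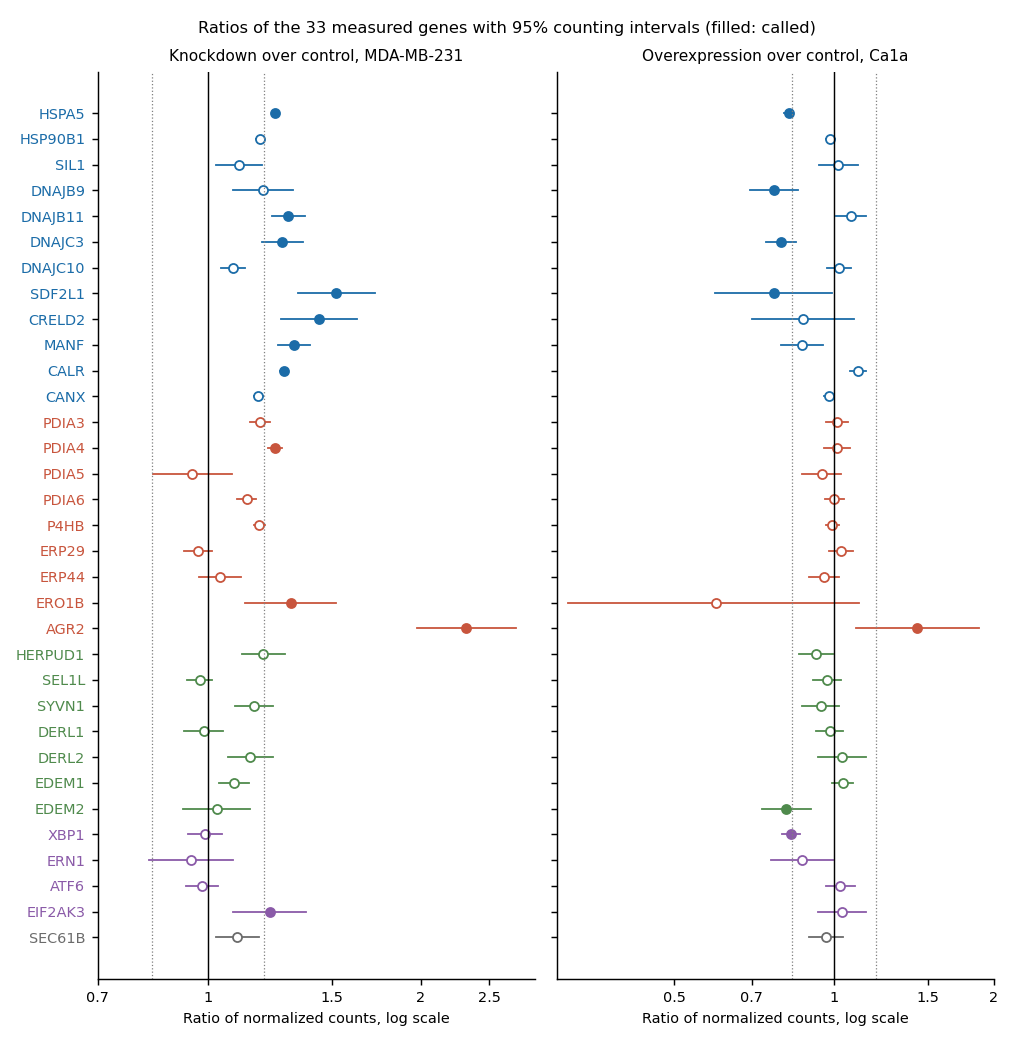
Ratio of normalized counts (log axis) for the 33 measured genes in each comparison, with 95% counting intervals; filled circles are called, and dotted lines mark 1.2-fold in either direction. On the left all chaperones lie to the right of 1 and AGR2 lies farthest; on the right HSPA5, DNAJB9, DNAJC3, SDF2L1, EDEM2 and XBP1 are called lower and AGR2 higher.

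AGR2, an isomerase gene of mucus-secreting epithelia and of many adenocarcinomas, had the largest ratio of the 33. It was at 516 normalized counts in knockdown cells, against 222 in control cells, 2.32-fold higher (1.98 to 2.73). Among 11091 genes averaging 100 or more, 0 had a higher ratio, and 12 did among all genes tested. AGR2 was included with this result known, so its place is a description. In the authors' deposited table it is 1 of 50 genes with a DESeq adjusted p under 0.05 in this comparison and the only 1 of the 35, at 1.9e-06, a value that compares these libraries and not the conditions. Its level was modest, at 7.93 FPKM in knockdown cells and 3.48 FPKM in control cells.

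A list of 10 genes studied beside AGR2 in secretory epithelium, XBP1 among them, had 5 members measured in MDA-MB-231. Of these 2 were called higher and 0 lower, against 5.33% and 3.39% of all genes. SPDEF, an ETS factor gene of secretory lineages, had 1096 normalized counts in knockdown cells, against 629.9 in control cells, 1.74-fold higher (1.58 to 1.92). MUC1, a transmembrane mucin gene, had 352 with knockdown, against 247 with control, 1.43-fold higher (1.21 to 1.69). CREB3L1, an ER-anchored transcription factor gene, had a ratio of 1.096 (1.03 to 1.17) and GATA3, a luminal factor gene, of 1.01 (0.813 to 1.26). AGR3 and FOXA1 are listed at 0 in both MDA-MB-231 libraries, and TFF1, TFF3 and ESR1 had 0 to 20.9 normalized counts with a mean under 20.

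**Figure D4:**
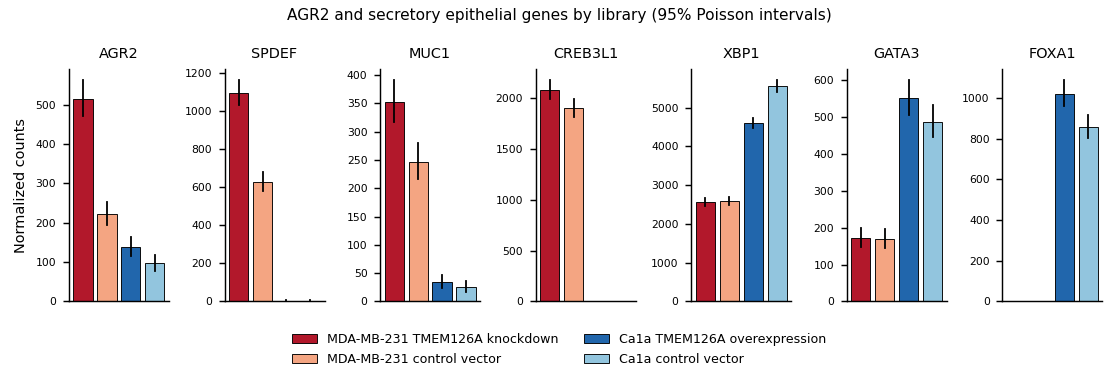
Normalized counts of AGR2 and 6 secretory epithelial or luminal genes in the 4 libraries, each axis starting at 0, with 95% Poisson intervals; the tables of the 2 lines were normalized separately. AGR2, SPDEF and MUC1 are higher in knockdown than in control cells with intervals that do not overlap, while XBP1 and GATA3 have near-equal bars there.

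No degradation gene was called among the 7 measured. Of all genes 5.33% were called higher and 3.39% lower, so 7 genes without a call are near the share of all genes. The intervals of 4 of the 7 lay above 1, against 16.8% of all genes. HERPUD1, a scaffold of the HRD1 complex and a classical stress-induced gene, had 1725 normalized counts in knockdown cells, against 1439.9 in control cells, and its ratio of 1.198 (1.12 to 1.29) lay just under the threshold. SYVN1, the HRD1 ligase itself, had a ratio of 1.16 (1.09 to 1.24), the derlin gene DERL2 of 1.15 (1.07 to 1.24) and EDEM1, which sorts misfolded glycoproteins for degradation, of 1.09 (1.04 to 1.15). SEL1L at 0.974 (0.936 to 1.01), DERL1 at 0.988 (0.927 to 1.05) and EDEM2 at 1.03 (0.924 to 1.15) had intervals that included 1. SEC61B, in the translocation channel, had a ratio of 1.101 (1.03 to 1.18). The median ratio of the degradation genes was 1.09, and those of the chaperones and of the isomerases and oxidases were 1.26 and 1.18.

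Of the sensors EIF2AK3 was called higher, with 629 normalized counts in knockdown cells, against 514 in control cells, 1.22-fold higher (1.09 to 1.38); an antisense gene shares 14.4% of its exonic bases. That call was lost with total reads, at a ratio of 1.196. XBP1 had 2574 with knockdown, against 2594 with control, a ratio of 0.992 (0.939 to 1.05). ATF6 had 2872 with knockdown, against 2922 with control, a ratio of 0.983 (0.933 to 1.04), and ERN1 423 with knockdown, against 447 with control, a ratio of 0.948 (0.828 to 1.08). Their intervals included 1, and gene counts do not separate the spliced from the unspliced form of XBP1. In the list of PERK and ATF4 arm genes, 4 of 12 were called lower and 0 higher, against 3.39% and 5.33% of all genes. Their median log2 ratio was -0.18. Intervals lay below 1 for 9 of the 12 and above 1 for 1, against 11.3% and 16.8% of all genes. CHAC1 had the largest difference, 1.82-fold lower (1.59 to 2.10). TRIB3, a pseudokinase gene induced by ATF4 and CHOP, had 1499.7 normalized counts in knockdown cells, against 2049.6 in control cells, 1.37-fold lower (1.28 to 1.46).

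Other ER genes were mostly under the threshold, and of all genes 5.33% were called higher and 3.39% lower. Of 24 further folding factors 3 were called higher and 0 lower, with a median log2 ratio of 0.13 and 23 ratios above 1. FKBP7, a prolyl isomerase gene, had 273 normalized counts in knockdown cells, against 187 in control cells, 1.46-fold higher (1.21 to 1.77). PPIB, the ER cyclophilin, had 7602 normalized counts in knockdown cells, against 6281 in control cells, 1.21-fold higher (1.17 to 1.25). Of 15 further thiol oxidoreductases 0 were called, with a median log2 ratio of 0.08. Of 23 further degradation genes 1 was called higher and 1 lower, with a median of -0.01. They were VIMP (SELENOS), a selenoprotein gene of the retrotranslocation complex, 1.22-fold higher (1.11 to 1.34), and MARCH6 (MARCHF6), a ligase gene, 1.30-fold lower (1.24 to 1.36). Of 11 other stress sensors and proteases 0 were called, with a median log2 ratio of 0.11.

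**Figure D5:**
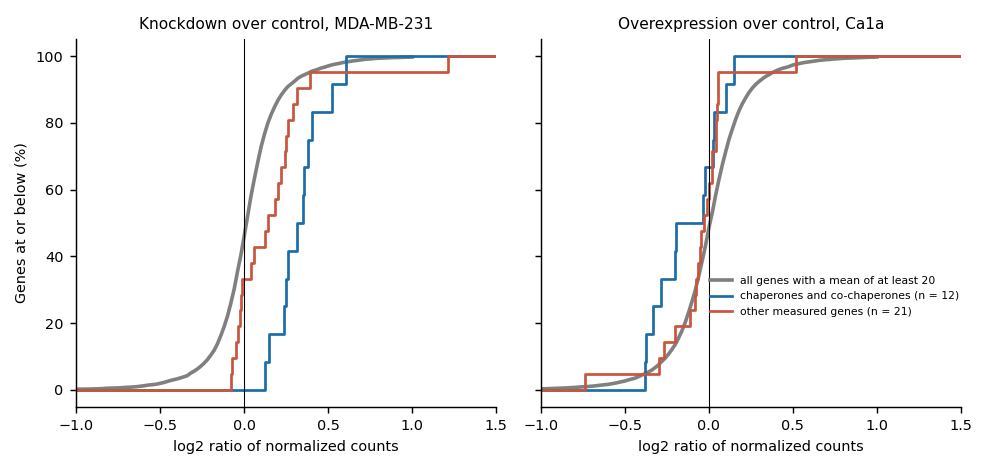
Cumulative share of genes (%) by log2 ratio in each comparison, for all genes with a mean of at least 20 (grey), the 12 measured chaperone and co-chaperone genes (blue) and the 21 other measured genes (red). In the knockdown comparison the blue line starts at 0.12 and ends at 0.60, to the right of the grey curve's midpoint; in the overexpression comparison its median is -0.11.

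The overexpression comparison asks which transcripts differ in Ca1a when TMEM126A is raised. Some stress-inducible chaperone genes and XBP1 were lower in the overexpression library, most isomerase genes were near their control levels, and AGR2 was higher. Of 33 measured genes 6 were called lower, against 5.94% of all 12111 genes tested, and 1 was called higher, against 5.76%. Intervals lay below 1 for 10 and above 1 for 3, against 16.2% and 18.1% of all genes. Among those with a mean of at least 1000, 3 of 23 were called lower and 0 higher, against 3.75% and 2.84% of all such genes. The median log2 ratio was -0.04, against 0.01 over all genes. The 35 genes took 0.560% of all reads in overexpressing cells and 0.588% in control cells. Here too the shares describe genes chosen with earlier results known.

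Among the chaperones 4 of 12 measured were called lower and 0 higher. HSPA5 had 16574 normalized counts in overexpressing cells, against 20204 in control cells, 1.22-fold lower (1.19 to 1.24). DNAJB9 had 643 with overexpression, against 834 with control, 1.30-fold lower (1.17 to 1.44). DNAJC3 had 1633 with overexpression, against 2054 with control, 1.26-fold lower (1.18 to 1.34). The last 2 are J-domain partners of BiP. SDF2L1 had 113 with overexpression, against 147 with control, 1.30-fold lower (1.01 to 1.68), a call that was lost with FPKM, at a ratio of 0.844. MANF at 0.869 (0.793 to 0.952) and CANX at 0.976 (0.958 to 0.994) had intervals below 1 and were under the threshold, and CRELD2 (153 with overexpression, against 175 with control) had a ratio of 0.874 (0.699 to 1.09). The chaperones did not all lie on that side. CALR had 7065 with overexpression, against 6367 with control, a ratio of 1.11 (1.07 to 1.15), and DNAJB11 a ratio of 1.07 (1.01 to 1.15). HSP90B1 had 16730 with overexpression, against 17000 with control, a ratio of 0.984 (0.963 to 1.01).

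Apart from ERO1B and AGR2, genes of the isomerase family lay close to 1 in Ca1a. PDIA3, PDIA4, PDIA6, P4HB and ERP29 had ratios of 0.993 to 1.03, PDIA5 of 0.947 and ERP44 of 0.958, and all 7 intervals included 1. P4HB, for instance, had 9293 normalized counts in overexpressing cells, against 9362 in control cells. ERO1B, at 18.0 with overexpression, against 30.0 with control, had a ratio of 0.6 (0.315 to 1.11), which this depth cannot tell from 1. AGR2 had 139 normalized counts in overexpressing cells, against 97.0 in control cells, 1.43-fold higher (1.098 to 1.88), at 2.09 and 1.51 FPKM. In the authors' deposited table the DESeq p of AGR2 in this comparison is 0.0882 and its adjusted p 1.0. SPDEF and CREB3L1 had 0 to 3 reads in each Ca1a library, and MUC1 (34.0 with overexpression, against 25.0 with control) had a ratio of 1.36 (0.788 to 2.38).

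XBP1 was called lower in Ca1a, with 4610 normalized counts in overexpressing cells, against 5558 in control cells, 1.21-fold lower (1.16 to 1.25). ERN1 had 417 with overexpression, against 479 with control, a ratio of 0.871 (0.762 to 0.995) under the threshold, and ATF6 and EIF2AK3 had ratios of 1.03 (0.965 to 1.09) and 1.04 (0.934 to 1.15). EDEM2, which starts mannose trimming of misfolded glycoproteins, was the only measured degradation gene of the 7 to be called, with 624 with overexpression, against 768 with control, 1.23-fold lower (1.11 to 1.37). HERPUD1 had 1453 with overexpression, against 1572 with control, a ratio of 0.924 (0.860 to 0.993). SEL1L, SYVN1, DERL1, DERL2 and EDEM1 had ratios of 0.944 to 1.04 with intervals that included 1, as did SEC61B at 0.966. In the list of PERK and ATF4 arm genes 3 of 12 were called lower and 0 higher, against 5.94% and 5.76% of all genes. Of the further folding factors and the further degradation genes 0 of 23 each were called in Ca1a, of 10 other sensors and proteases 0, and of 14 further thiol oxidoreductases GPX8, 1.23-fold higher (1.08 to 1.40).

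Side by side, the comparisons share no library. HSPA5, DNAJC3 and SDF2L1 were called higher with knockdown and lower with overexpression, which is 3 of 33 genes, against 0.388% of the 11349 genes tested in both; SDF2L1 was not called lower with FPKM. By intervals alone the pattern held for 7 of 33, against 3.37%, with DNAJB9, MANF, CANX and HERPUD1 added. AGR2 was called higher in both, 1 of 33 against 0.573%. CALR and DNAJB11 also had intervals above 1 in both comparisons. The reverse pattern, lower with knockdown and higher with overexpression, was met by 0 of 33, against 0.185%, and 0 were lower in both, against 0.308%. The genes, AGR2 among them, were chosen with earlier results of these data known, so the shares set beside them are a description. Line, medium and construct differ between the comparisons and cannot be told apart.

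Set against the promoters, the 10 measured genes with an exact ERSE or ERSE-II had a median ratio of 1.22 in the knockdown comparison. Of these 5 were called higher. The 21 without an exact ERSE or ERSE-II in the promoter window had a median of 1.11, with 6 called higher. Of all genes tested in that comparison 5.33% were called higher. In the overexpression comparison the medians were 0.899 and 0.993, with 3 called lower in each set, against 5.94% of all genes. Genes of both sets overlapped: XBP1, with an exact ERSE, had a ratio of 0.992 in the knockdown comparison. AGR2, DNAJB11 and MANF, with no exact match in the window, had 2.32, 1.30 and 1.32. These counts describe letters near annotated starts and carry no statement about binding.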

How the data were processed

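RNA-seq of 4 cultures was analysed, 1 library per group. The submitters' processing notes name HISAT2, Cufflinks, HTSeq, DESeq, GRCh38.p5 and hg38; their order, versions and strand setting were not stated. The file headers name base means and give no unit. For Ca1a the deposited DESeq base means are whole numbers and were taken as read counts. For MDA-MB-231 the deposited base means are a signal, which was taken as reads over the library's size factor. There 100% of values were whole multiples of the smallest value above 0 (relative tolerance 1e-06), which served as reads. The authors also deposited p-values and adjusted p-values per gene, copied unchanged, and FPKM of all 4 libraries, whose denominator was not stated.

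The 35 genes and the lists were chosen with earlier results of these data known. All 35 may be named, and of each of 8 context lists up to 4 genes per comparison with the largest absolute log2 ratios and a mean of at least 100. Ratios are of normalized counts without a pseudocount, with exact conditional binomial (Clopper-Pearson) intervals at 95%, and levels carry exact Poisson intervals. Intervals cover counting error only and leave out differences between cultures. They treat reads as independent molecules, which reads without molecular identifiers are not, so they can be too narrow. With 1 library per group there was no test. Calls need at least 1.2-fold, an interval that leaves out 1 and a mean of at least 20 (between lines at least 2-fold and a mean of at least 1 FPKM). The calling procedure was tested on simulated counts with Poisson error only. They hold no difference between cultures, so this cannot show how the calls would hold in other cultures. The alternatives were FPKM, a pseudocount, other filters, folds and scalings, and no interval. Positions and exon overlaps come from GENCODE release 29, promoters from RefSeq, and the motif letters from textbook definitions. Genes with near-identical copies elsewhere may lose or gain reads. Versions used: edgeR 4.0.16 (TMM) under R 4.3.3; scipy 1.17.1, pandas 2.3.3, numpy 2.4.6 and matplotlib 3.10.9 under python 3.11.15.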

Additional observations from a re-analysis of the deposited data

How the results depend on the processing

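No paired analysis was possible because each group held 1 library. In the knockdown comparison the count of genes called higher was 10 or 11 with FPKM, a pseudocount of 1, a mean of at least 100, no filter, total reads, TMM, no interval and, chosen after seeing the data, the median of all genes set to 1. The gene lost with total reads was EIF2AK3, at a ratio of 1.196. The count was 22 at 1.1-fold (11.4% of all genes), 2 at 1.5-fold (1.44%) and 6 of 24 with a mean of at least 1000 (also chosen after seeing the data), where 2.66% of all genes were called higher. The count called lower was 0 in every setting tried. With FPKM in the overexpression comparison 5 of 31 were called lower (7.89% of all genes), without SDF2L1 at 0.844, and with no interval 7 of 33 (9.4%). In that comparison 2 genes were called higher at 1.1-fold (13.5% of all genes) and 0 at 1.5-fold (1.27%), where 0 were also called lower (1.37%). With a mean of at least 1000, 0 of 23 were called higher (2.84%) and 3 lower (3.75%). Between the control libraries 7 genes were called higher with read counts and TMM (22.5% of all genes), with a median log2 ratio of 0.27; 17 were higher at 1.5-fold (38.4%), and 4 of 33 higher (14.7%) and 0 lower (7.89%) at 3-fold. These counts differ because the threshold, the genes tested or the scale does. No called gene changed sign with FPKM, a pseudocount or another scale, and the medians of the 33 genes kept theirs. Signs of uncalled genes differed between FPKM and counts for 6 genes of the overexpression comparison (DNAJC10, PDIA3, PDIA4, PDIA6, ATF6 and EIF2AK3) and for SIL1 and SEC61B between the lines. Depth limits ERO1B, SDF2L1, CRELD2 and AGR2 in Ca1a, with 18 to 175 reads per library.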

Other observations

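Of 14 measured cytosolic and mitochondrial heat shock genes, 0 were called in the knockdown comparison, where 5.33% of all genes were called higher and 3.39% lower, so that 0 is near the share of all genes. Their median log2 ratio was 0.02. HSPA8, the constitutive cytosolic Hsp70, had 55875 normalized counts in knockdown cells, against 48657 in control cells, a ratio of 1.15 (1.13 to 1.16). BAG3, an Hsp70 co-chaperone gene, had 2437 normalized counts in knockdown cells, against 2058 in control cells, a ratio of 1.18 (1.12 to 1.26). In Ca1a, HSP90AA1, the inducible cytosolic Hsp90, was called higher, with 24623 normalized counts in overexpressing cells, against 18435 in control cells, 1.34-fold higher (1.31 to 1.36), while its ER paralog HSP90B1 had a ratio of 0.984. HSPA1A and HSPA1B, near-identical copies of the stress-inducible Hsp70 gene, are listed at 0 in all 4 libraries.

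Genes of translocation and signal peptide processing were mostly within 1.2-fold. Of 23 measured, 1 was called higher with knockdown and 0 lower, against 5.33% and 3.39% of all genes. It was the signal peptidase subunit gene SPCS2, with 688 normalized counts in knockdown cells, against 521 in control cells, 1.32-fold higher (1.18 to 1.48). In Ca1a 0 of 23 were called, where 5.76% of all genes were called higher and 5.94% lower. SRP14, a signal recognition particle subunit, had a ratio of 1.198 (1.13 to 1.27) and SPCS3, another signal peptidase subunit gene, of 0.841 (0.790 to 0.896). TRAM2, a translocon-associated gene, had 45.4 FPKM in the MDA-MB-231 control and 0.260 FPKM in the Ca1a control.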
